A study of Rattus norvegicus with 24 samples.

Results

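The proteasome genes were taken as every gene whose symbol begins with Psm, a letter from a to g and a number, which gave 44 of the 10851 genes in the table. They comprised 7 alpha and 7 constitutive beta subunits of the core, 2 inducible beta subunits, 6 ATPases and 11 non-ATPase subunits of the regulatory cap, 4 activators and inhibitors, and 5 assembly chaperones. The remaining 2, Psmc3ip and Psme3ip1, carry such symbols because their proteins bind Psmc3 and Psme3 and are no proteasome subunits, which left 42 subunits and chaperones. Members of the family outside the table, such as Psmb10, Psme3, Psma8, Psmd9 and Psmd10, were not analysed here.

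Poly-A RNA of the medial gastrocnemius, a mostly fast-twitch calf muscle, was sequenced from 24 male Wistar rats, 6 in each of 4 groups. Control rats received saline and stayed sedentary (Sed) or trained on a treadmill (Ex), and rats given a single injection of monocrotaline, the model of cardiac cachexia (CC), likewise stayed sedentary (CC-Sed) or trained (CC-Ex). Each library came from 1 rat, no rat carried a transgene, and the monocrotaline rats that died or showed no remodelling of the right ventricle were not among those sequenced. The comparisons asked what CC did to the muscle in sedentary rats (Sed vs. CC-Sed) and in trained rats (Ex vs. CC-Ex), and what training did in healthy and in cachectic rats.

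The proteasome degrades proteins that have been tagged with ubiquitin. Its core is a stack of alpha and beta rings in which only Psmb5, Psmb6 and Psmb7 carry the constitutive proteolytic sites, and the cap that docks on the core binds the ubiquitin chain, removes it and unfolds the substrate with a ring of ATPases. In wasting muscle the pathway is known for the breakdown of myofibrillar proteins after their tagging by the muscle ligases Fbxo32 (atrogin-1) and Trim63 (MuRF1), and the transcription factor Nfe2l1 (NRF1) is known to drive the genes of its subunits through antioxidant response elements.

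Promoter sequences are shown for the 2 members with the largest differences between CC and control rats, Psme4 and Psmd8, and for Psmb5, a catalytic subunit of the core that hardly differed, because the genes of the complex are known to be regulated together. They run from 250 bases before the start of the gene to 50 after it, are given 5′ to 3′ on the strand of the gene, and come from RefSeq on the build GRCr8, which is not the build of the count table. The Psme4 promoter lies at chr14:108706393-108706692 on the plus strand, that of Psmd8 at chr1:93608640-93608939 on the minus strand and that of Psmb5 at chr15:32047330-32047629 on the minus strand. Capitals mark the core of the antioxidant response element, TGACNNNGC, read on either strand.
Psme4: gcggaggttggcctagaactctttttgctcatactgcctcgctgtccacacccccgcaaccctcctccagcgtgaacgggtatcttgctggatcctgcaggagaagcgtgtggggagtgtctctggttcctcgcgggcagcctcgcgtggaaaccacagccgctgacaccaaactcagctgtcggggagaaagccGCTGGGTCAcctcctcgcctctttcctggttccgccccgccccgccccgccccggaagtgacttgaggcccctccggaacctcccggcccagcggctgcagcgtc
Psmd8: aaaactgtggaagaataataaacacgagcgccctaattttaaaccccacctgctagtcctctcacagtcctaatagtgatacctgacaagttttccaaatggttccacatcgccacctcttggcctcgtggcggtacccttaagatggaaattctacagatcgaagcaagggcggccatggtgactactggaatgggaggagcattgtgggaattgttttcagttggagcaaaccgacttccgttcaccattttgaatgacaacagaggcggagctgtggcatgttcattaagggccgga
Psmb5: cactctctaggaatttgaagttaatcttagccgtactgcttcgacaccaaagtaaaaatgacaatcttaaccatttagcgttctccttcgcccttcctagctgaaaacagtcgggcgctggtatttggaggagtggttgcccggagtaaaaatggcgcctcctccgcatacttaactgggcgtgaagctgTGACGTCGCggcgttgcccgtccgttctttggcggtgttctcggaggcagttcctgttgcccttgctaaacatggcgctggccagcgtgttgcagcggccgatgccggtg

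RefSeq held a promoter for 40 of the 44 members, 24 of which passed the test for the mean CC effect described below. TGACNNNGC stood in 7 of the 40, those of Psma3, Psmb2, Psmb5, Psmb6, Psmd1, Psmd3 and Psme4, against 12.1% of all promoters of this length and 14.9% of those of the genes in the table. It stood in 3 of the 24 promoters of members that passed the test and in 4 of the 16 of members that did not. The ETS core CCGGAAG stood in 15 of the 40, against 8.75% of all promoters and 18.6% of those in the table, and the CCAAT box, the site of NF-Y, in 20 against 37.5% and 37.7%. The FoxO core GTAAACA stood in 1, that of Psme2, against 3.78% and 2.43%. The motifs were searched on both strands, and the only overlap between 2 motifs was that of TGACNNNGC with a CCAAT box in Psmb2. A match in these letters is a description and no binding was measured.

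Each library held between 37816239 and 50350554 counts, and a two-sided exact permutation test found no detectable difference of the totals in Sed vs. CC-Sed (p = 0.526), and the same exact test gave p = 0.34 for Ex vs. CC-Ex. The lowest count of any member in any rat was 44, for Psmb8 in CC-Ex replicate 5, so that counting error was small beside the spread between rats for most members. Levels are given in CPM, the counts scaled to a common library size after TMM scaling, without correction for transcript length, so a level is compared between rats and never between genes. RefSeq names 46 pseudogenes and 6 near copies after genes of this family, which concern 18 of the members, and reads shared with such copies may have been divided between them, so the levels of these members are less certain. In whole muscle, fewer cells of a type and less RNA per cell cannot be told apart. The fast-fibre markers summed to between 70010 and 199000 CPM in every rat, as the label of the tissue implies, while the summed slow-fibre markers ranged from 16.93 to 7381 CPM.

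Within the CC groups, a few rats stood above the rest. For 33 of the 44 members, the 3 highest of the 24 rats were CC-Sed replicates 1 and 6 and CC-Ex replicate 5, in some order, which was so for 12.2% of all genes. This held for all 31 constitutive subunits of the core and the cap, for the chaperone Psmd5 and for the inhibitor Psmf1, and for neither of the inducible subunits. Together the members held 0.823% of the counts of CC-Sed replicate 1, 0.937% of CC-Sed replicate 6 and 1.13% of CC-Ex replicate 5. In the 6 Sed rats this share lay between 0.304% and 0.541% with a median of 0.346%, and in the 6 Ex rats between 0.297% and 0.388% with a median of 0.319%. The medians were 0.497% in CC-Sed and 0.428% in CC-Ex, and the lowest CC rats, at 0.295% and 0.311%, lay among or below the controls. The groups therefore overlapped, and a minority of the CC rats carried most of the difference.

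**Figure D1:**
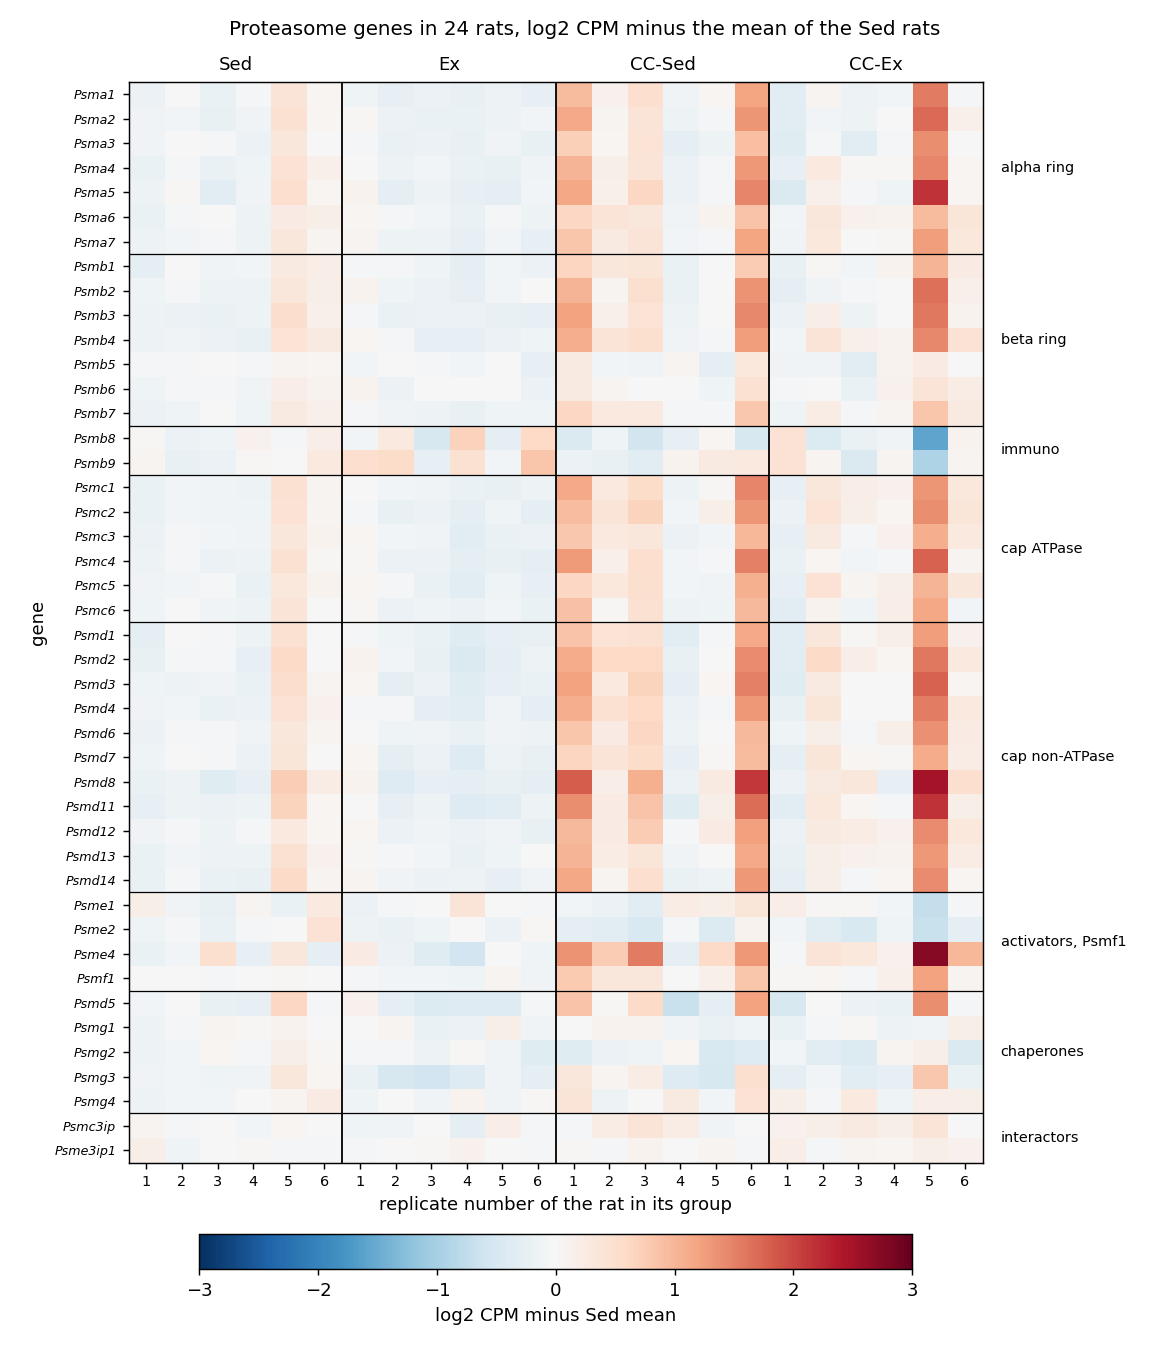
Heat map of the 44 proteasome genes (rows, by role) in the 24 rats (columns, by group and replicate number), coloured by log2 CPM minus the mean of the 6 Sed rats. CC-Sed replicates 1 and 6 and CC-Ex replicate 5 are the darkest columns from the alpha ring to the non-ATPase subunits of the cap, whereas the inducible subunits Psmb8 and Psmb9 are lowest in CC-Ex replicate 5.

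Across the members, the median difference from the Sed mean on the log2 scale was 0.84 in CC-Sed replicate 1, 1.10 in CC-Sed replicate 6 and 1.28 in CC-Ex replicate 5. It was 0.40 in CC-Sed replicate 3 and 0.34 in Sed replicate 5, and it was -0.14 in CC-Sed replicate 4 and -0.20 in CC-Ex replicate 1. The members moved up and down together within the control groups as well. Sed replicate 5 was the highest Sed rat for 36 of them, beside 23.7% of all genes. Ex replicate 1 was the highest Ex rat for 31, beside 20.6% of all genes. The median SD of the members' log2 CPM was 0.205 in Sed and 0.117 in Ex, where that of all genes was 0.2 and 0.195. In CC-Sed it was 0.497 and in CC-Ex 0.528, above the 0.318 and 0.372 of all genes. CC-Ex replicate 5 stood apart beyond the proteasome, being the highest CC-Ex rat for 36.9% and the lowest for 35.2% of all genes. The 10 most abundant genes took 24.8%, 26% and 26.3% of the counts of the 3 rats, the lowest of all 24 (27.7% to 34.4% in the others), and the summed erythroid markers were at 50.54, 90.63 and 33.8 CPM in them, beside 49.87 to 960 CPM in the others. Their part in the values of the members was not tested. The counts of genes that passed in the CC comparisons are therefore also given without the 3 rats, for the members and for each role or list with a gene that passed. This alternative was chosen after their values were seen. Because the 3 rats were picked for high values of the members, leaving them out lowers the CC effect on the members by design. It shows how far a value rests on these rats and is no independent test.

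Proteasome genes were higher in the CC rats when both pairs of groups were averaged. Averaged over the sedentary and the trained comparison, 12 CC against 12 control rats, 26 members rose and 1 fell, at a Benjamini-Hochberg adjusted p under 0.05 in edgeR's quasi-likelihood test over all genes. Of all genes 27.8% passed this test, 17.2% upward and 10.6% downward. The median Log2FC of the members was 0.47, beside 0.01 for all genes, 38 of 44 values were positive, and 33 had an unadjusted p under 0.05, as 42.4% of all genes did. Only Psme4 and Psmd8 also met the DEG criterion of a Log2FC of at least 1 in size, which 2.88% of all genes met. Without the 3 high rats 5 members still passed, Psme4, Psmc2, Psmd12 and Psmf1 upward and Psme2 downward, and the median of the members was 0.13, beside -0.004 for all genes. In that fit 15.3% of all genes passed, 9.75% upward and 5.55% downward. The shares cannot be weighed against each other there, since the rats left out were picked by the values of the members. Leaving out any 1 of the 3 alone brought the count from 27 to 17, where 20.6% (CC-Sed replicate 1), 20.3% (CC-Sed replicate 6) and 24.1% (CC-Ex replicate 5) of all genes passed.

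Within each pair of groups no member passed the test. In Sed vs. CC-Sed, 0 of 44 passed by edgeR and 0 by DESeq2, where 6.46% of all genes passed by edgeR, and 22 members had an unadjusted p under 0.05, as 28.4% of all genes did. In Ex vs. CC-Ex, 0 of 44 passed by edgeR, where 0.995% of all genes passed, 1 passed by DESeq2, which was Psme4, and 23 had an unadjusted p under 0.05, as 22.6% of all genes did. The Log2FC was positive for 39 and 38 members with medians of 0.46 and 0.48, beside 0.02 and 0.01 for all genes. No member had CC rats entirely above or below their controls in either pair, which was so for 3.61% and 1.08% of all genes. Leaving out CC-Ex replicate 5, which is not in the sedentary pair but enters the shared estimate of spread, brought 17 members past the threshold in Sed vs. CC-Sed, with 19.3% of all genes, and leaving out CC-Sed replicate 4 brought 8, with 15.9% of all genes. The values in Ex vs. CC-Ex rested largely on CC-Ex replicate 5. Without it the median Log2FC of the members there was 0.14 and 1 had an unadjusted p under 0.05, and the Log2FC of Psmd8 went from 1.13 to 0.37 and that of Psma5 from 0.78 to 0.07. Without the 3 high rats 0 members passed by edgeR in either pair, where 3.05% and 0.0461% of all genes passed. The medians were then 0.12 and 0.16, and 4 and 11 members had an unadjusted p under 0.05. In the fits that left rats out, the share of all genes at an unadjusted p under 0.05 was not counted.

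**Figure D2:**
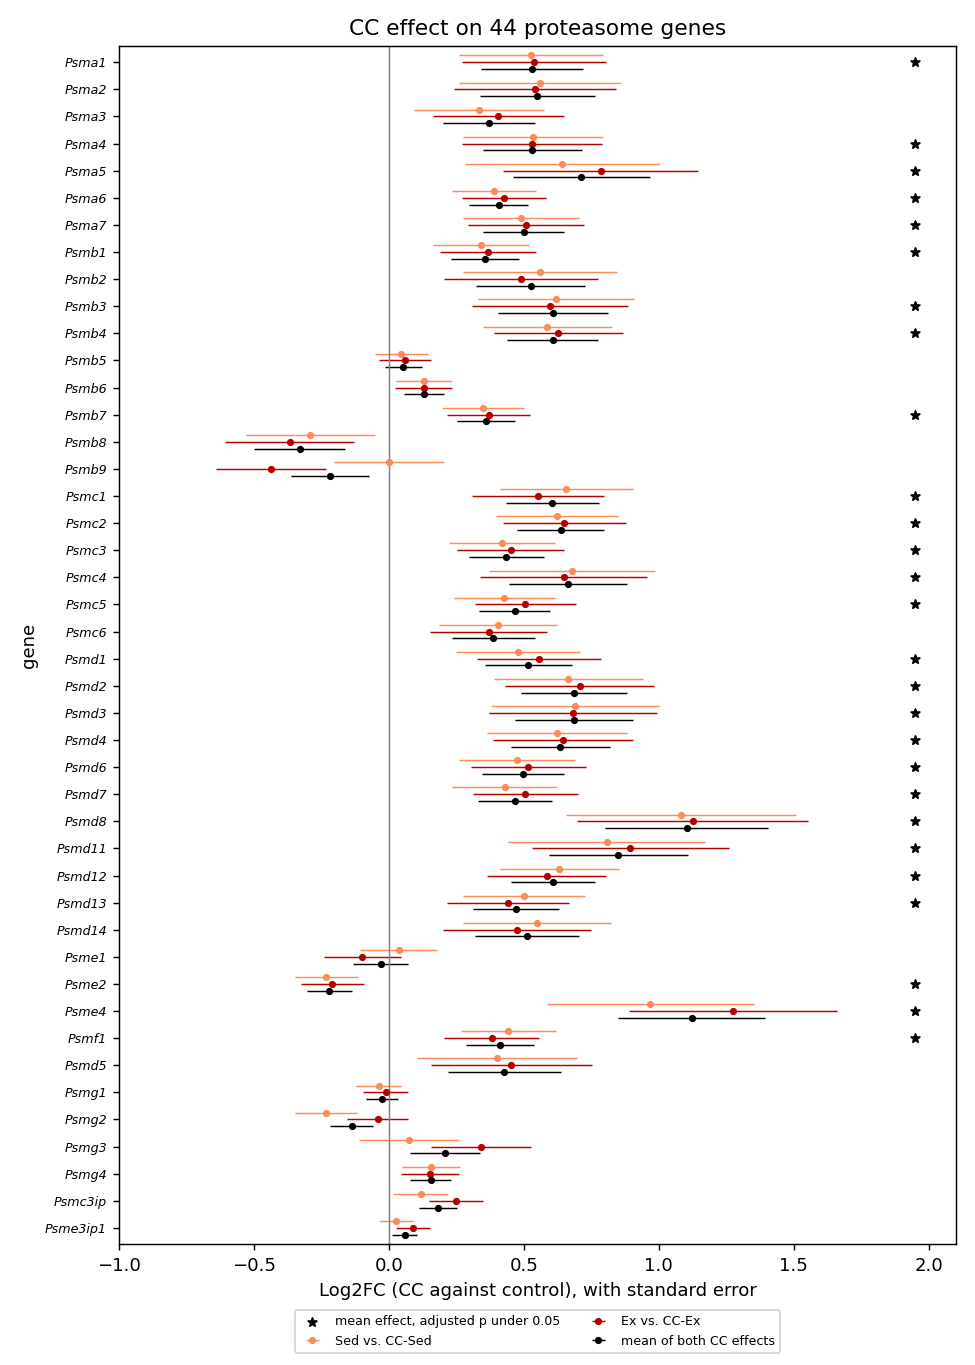
Log2FC of CC against control with its standard error for the 44 genes, by role, in Sed vs. CC-Sed, in Ex vs. CC-Ex and as the mean of both effects, each estimated from the fit to 24 rats. Stars mark the 27 members whose mean effect passed the adjusted p threshold. In this fit both single comparisons lie close to each other for most genes, from -0.44 for Psmb9 in Ex vs. CC-Ex to 1.27 for Psme4 in Ex vs. CC-Ex. Without CC-Ex replicate 5 they lay further apart, the effect in trained minus that in sedentary rats being -0.68 for Psmd8 and -0.53 for Psma5. Without CC-Sed replicate 6 these differences were 0.36 and 0.38, so that their sign followed the high rat left out.

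In the alpha ring, which gates the entry to the core, 5 of 7 subunits rose, and Psma2 and Psma3 did not pass. In the fit without the 3 high rats 0 of 7 passed by edgeR and 2 had an unadjusted p under 0.05. Psma6 had the smallest p of the ring. Its level was 97.19 CPM in the lowest, 108.2 at the median and 132.4 in the highest Sed rat, and 97.2, 105.3 and 115.9 CPM in the Ex rats. In CC-Sed it was 103.2, 142.4 and 200.6 CPM, and in CC-Ex 105.8, 131.1 and 215 CPM. The lowest CC rats lay among the controls, and 10 of the 12 CC rats were above the median of the controls. The mean CC effect on Psma6 was a Log2FC of 0.41 ± 0.11 (SE, adjusted p = 0.0109), and without the 3 high rats it was 0.22 (adjusted p = 0.0517). Psma5 had the largest Log2FC of the ring, 0.71 ± 0.26 (adjusted p = 0.0412), and it was 0.11 (adjusted p = 0.515) without the 3 rats.

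Among the constitutive beta subunits 4 of 7 rose, and the 3 catalytic ones differed in their values. Psmb4, a structural subunit of the ring, had the smallest p, with a Log2FC of 0.61 ± 0.17 (adjusted p = 0.0129). It was at 61.33, 65.21 and 94.29 CPM in the lowest, median and highest Sed rat and at 60.01, 64.43 and 74.76 CPM in the Ex rats. In CC-Sed it was at 66.02, 97.24 and 170.4 CPM, and in CC-Ex at 67.72, 86.33 and 193.9 CPM. All 12 CC rats were above the median of the control rats, although the lowest of them lay within the control range. The other risers were Psmb1, Psmb3 and Psmb7. When the 3 high rats were left out 0 of the 7 passed by edgeR and 2 had an unadjusted p under 0.05.

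Of the catalytic subunits, Psmb7, which carries the trypsin-like site, rose with a Log2FC of 0.36 ± 0.11 (adjusted p = 0.0196). Its lowest, median and highest levels were 143.9, 155.2 and 196.1 CPM in Sed, 138.1, 147.7 and 158.5 CPM in Ex, 156.6, 198.8 and 283.7 CPM in CC-Sed, and 147.8, 180.8 and 288.6 CPM in CC-Ex. Psmb6, the caspase-like subunit, had a Log2FC of 0.13 (adjusted p = 0.19), with medians of 55.19 CPM in Sed, 56.68 CPM in Ex, 58.95 CPM in CC-Sed and 59.62 CPM in CC-Ex. Psmb5, the chymotrypsin-like subunit, had a Log2FC of 0.05 (adjusted p = 0.586, 95% interval from -0.09 to 0.20). Its levels were 81.43, 83.82 and 90.07 CPM in Sed, 71.6, 80.68 and 84.18 CPM in Ex, 70.19, 84.5 and 105.1 CPM in CC-Sed, and 68, 81.39 and 100.8 CPM in CC-Ex. Psmb5 was still highest in the same 3 rats, at 101.4 CPM in CC-Sed replicate 1, 105.1 CPM in CC-Sed replicate 6 and 100.8 CPM in CC-Ex replicate 5. The sign of its Log2FC turned to -0.03 under upper-quartile scaling. Whether the 3 catalytic subunits differed from each other in their response was not tested.

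**Figure D3:**
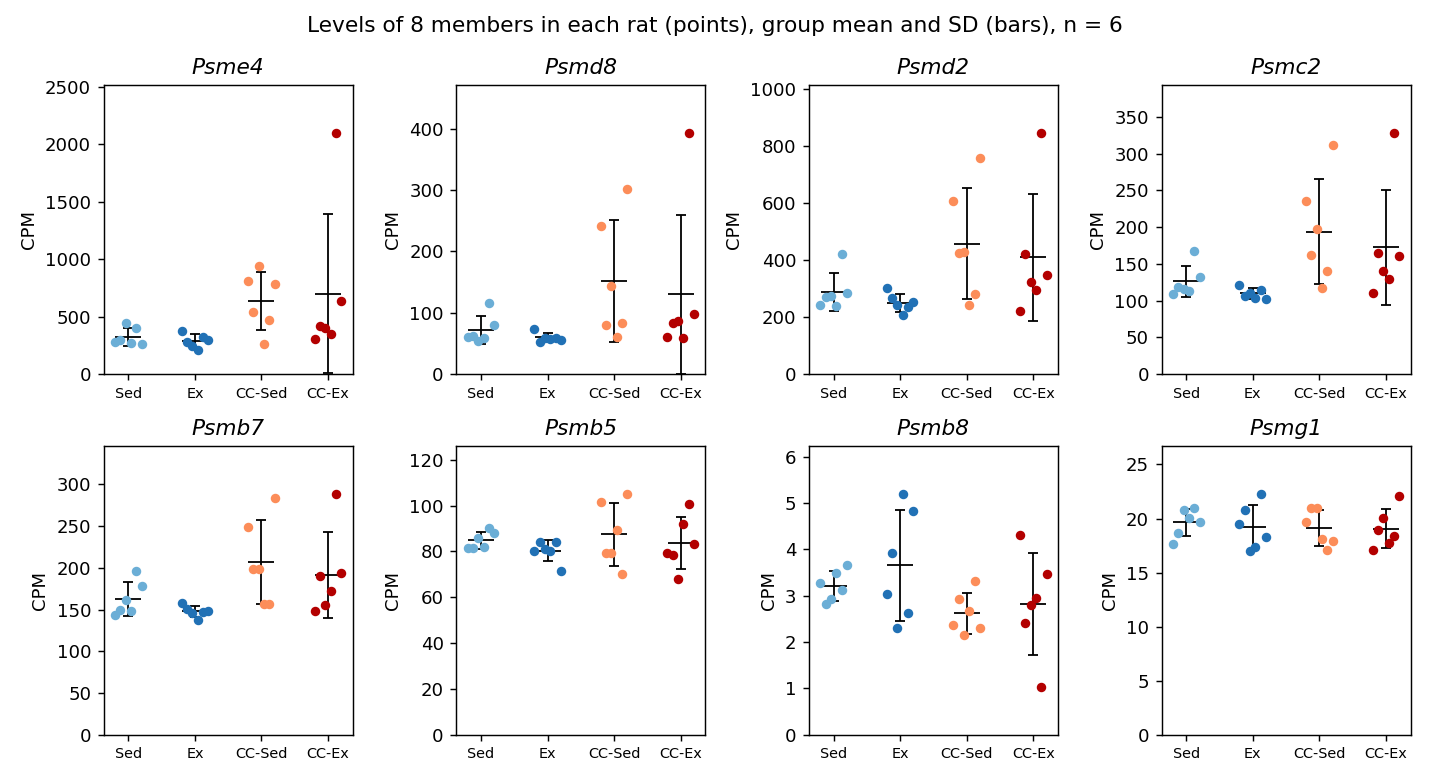
Levels in CPM of 8 members in each rat (points, 6 per group), with the mean and SD of each group (bars). In Psme4, Psmd8, Psmd2, Psmc2 and Psmb7 the highest points are mostly the same CC rats, while in Psmb5, Psmb8 and the chaperone Psmg1 the 4 groups overlap over most of their range.

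The inducible subunits Psmb8 and Psmb9, which replace catalytic subunits in the immunoproteasome and shape peptides for antigen presentation, did not pass. Psmb8 was at 2.829, 3.19 and 3.67 CPM in the lowest, median and highest Sed rat, and at 2.298, 3.481 and 5.197 CPM in the Ex rats. It was at 2.159, 2.524 and 3.322 CPM in CC-Sed and at 1.032, 2.874 and 4.313 CPM in CC-Ex. Its mean Log2FC was -0.33 ± 0.17 (adjusted p = 0.136), and only 3 of 12 CC rats lay above the control median. For Psmb9 the medians were 2.568 CPM in Sed, 3.57 CPM in Ex, 2.483 CPM in CC-Sed and 2.693 CPM in CC-Ex, and the Log2FC was -0.22 ± 0.14 (adjusted p = 0.25). CC-Ex replicate 5, the highest rat for most other members, was the lowest CC-Ex rat for both. In RefSeq, Psmb8 lies between the peptide transporter genes Tap2 and Tap1, and Psmb9 follows Tap1. Tap1 had a Log2FC of -0.11 (adjusted p = 0.571) and Tap2 of -0.13 (adjusted p = 0.44). The leukocyte markers, 13 of a list of 14 in the table, of which 0 passed in either direction, summed to between 53.28 and 367.1 CPM in Sed, 86.17 and 436.9 CPM in Ex, 79.95 and 241.5 CPM in CC-Sed, and 65.3 and 380.4 CPM in CC-Ex. CC-Ex replicate 5 had the lowest sum of its group, 65.3 CPM, and the part of leukocytes in these values was not tested.

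In the cap, 5 of 6 ATPases and 10 of 11 non-ATPase subunits rose, and Psmc6 (adjusted p = 0.0627) and Psmd14 (adjusted p = 0.0517) did not pass. Only Psmc2, 1 of 6, and Psmd12, 1 of 11, rose in the fit without the 3 high rats. Psmc2 had the smallest p of the ATPases. It was at 108.4, 117.2 and 167.2 CPM in Sed, 102.3, 108.3 and 121.7 CPM in Ex, 117.4, 179.6 and 312.2 CPM in CC-Sed and 109.9, 151 and 328 CPM in CC-Ex. In CC-Sed 3 of 6 rats were above every Sed rat, and in CC-Ex 5 of 6 were above every Ex rat. The Log2FC was 0.64 ± 0.16 (adjusted p = 0.00765), and without the 3 high rats it was 0.32 (adjusted p = 0.0276). Psmc1 had a Log2FC of 0.61 (adjusted p = 0.0147) and Psmc5 of 0.47 (adjusted p = 0.0144).

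Psmd12, a scaffold subunit of the lid, had the smallest p of the non-ATPase subunits. It lay at 114.2, 123.4 and 157 CPM in Sed and at 109.8, 115.7 and 131.9 CPM in Ex, and at 124, 183.9 and 299.9 CPM in CC-Sed and 113, 150.8 and 341.5 CPM in CC-Ex. The Log2FC was 0.61 ± 0.16 (adjusted p = 0.00812), and 0.30 (adjusted p = 0.0249) without the 3 high rats. Psmd12 was therefore among the 5 members that still passed without them.

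Psmd8 had the largest Log2FC of the cap, 1.10 ± 0.30 (adjusted p = 0.0117). It was at 53.93, 61.28 and 115.6 CPM in the lowest, median and highest Sed rat, and at 52.54, 58.09 and 74.13 CPM in the Ex rats. In CC-Sed it was at 60.86, 113.4 and 301.5 CPM, and in CC-Ex at 58.54, 85.55 and 393 CPM. In CC-Ex the highest rat was far above the next one, which was at 98.11 CPM. Without the 3 high rats the Log2FC was 0.36 (adjusted p = 0.108), so that Psmd8 was no longer called.

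Subunits that bind ubiquitin or its carriers were among those that rose. The deubiquitinase Psmd14 had a Log2FC of 0.51 and narrowly missed the threshold (adjusted p = 0.0517). Psmd2, a docking site for shuttle proteins, had a Log2FC of 0.69 ± 0.20 (adjusted p = 0.0145) and medians of 273.3 CPM in Sed, 247.8 CPM in Ex, 427 CPM in CC-Sed and 335.2 CPM in CC-Ex. Psmd4, a ubiquitin receptor, had a Log2FC of 0.63 (adjusted p = 0.0157), and Psmd7, the partner of Psmd14, had 0.47 (adjusted p = 0.0172). Without the 3 high rats Psmd2, Psmd4 and Psmd7 were at 0.30 (adjusted p = 0.112), 0.25 (adjusted p = 0.1) and 0.24 (adjusted p = 0.103). Psmd14 was then at 0.08 (adjusted p = 0.622).

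Of the activators and inhibitors that dock on the core in place of the cap, Psme4 and Psmf1 rose and Psme2 fell, as they also did without the 3 high rats. Psme4 (ENSRNOG00000060340), the activator known from DNA repair and spermatogenesis, had the largest Log2FC of all members, 1.12 ± 0.27 (adjusted p = 0.00612, 95% interval from 0.56 to 1.68). It was at 262.5, 288.2 and 442.6 CPM in the lowest, median and highest Sed rat, and at 213.6, 287.4 and 378.8 CPM in the Ex rats. In CC-Sed it was at 266, 662.9 and 941.7 CPM, and in CC-Ex at 305.2, 407.5 and 2096 CPM. In CC-Sed 5 of 6 rats were above every Sed rat, and in CC-Ex 4 of 6 were above every Ex rat. CC-Sed replicate 3, and not 1 of the 3 high rats, was its highest CC-Sed rat. Without the 3 rats the Log2FC of Psme4 was 0.65 (adjusted p = 0.0216).

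Psme1 and Psme2, the interferon-inducible pair of activator subunits, went without the rise of the core. Psme1 had a Log2FC of -0.03 (adjusted p = 0.826, 95% interval from -0.24 to 0.18), with medians of 42.25 CPM in Sed, 41.87 CPM in Ex, 44.27 CPM in CC-Sed and 42.44 CPM in CC-Ex. Psme2 fell by 0.22 on the log2 scale (adjusted p = 0.049), from medians of 21.54 CPM in Sed and 20.32 CPM in Ex to 18.34 CPM in CC-Sed and 18.11 CPM in CC-Ex. Only 3 of 12 CC rats were above the control median for Psme2, and without the 3 high rats the Log2FC was -0.24 (adjusted p = 0.0473). The call for Psme2 lies at the threshold, since it held in 6 of 24 fits that each left out 1 rat. The call was lost with the library number as a covariate, where the Log2FC was -0.12 (adjusted p = 0.371). That number partly follows the groups, so the covariate may also take up part of the CC effect. Psmf1, an inhibitor of the core, rose with a Log2FC of 0.41 ± 0.12 (adjusted p = 0.0196), and by 0.16 (adjusted p = 0.0347) without the 3 rats.

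None of the 5 assembly chaperones passed the test by edgeR, and 0 had an unadjusted p under 0.05. Psmd5, which holds the ATPase base until it meets the core, had the largest Log2FC, 0.43 ± 0.21 (adjusted p = 0.124). It was at 18.64 CPM at the median in Sed, 15.45 CPM in Ex, 24.54 CPM in CC-Sed and 17.96 CPM in CC-Ex, with the highest level of 51.58 CPM in CC-Ex replicate 5 and the second highest of 44.87 CPM in CC-Sed replicate 6. Without the 3 high rats its Log2FC was -0.004. Psmg1 to Psmg4, which assemble the alpha ring, had Log2FC between -0.14 for Psmg2 and 0.21 for Psmg3. Of the 2 interactors, Psmc3ip had a Log2FC of 0.18 (adjusted p = 0.0582) and Psme3ip1 of 0.06 (adjusted p = 0.338).

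Training left no detectable mark on the members. In Sed vs. Ex and in CC-Sed vs. CC-Ex, 0 of 44 members passed by edgeR and 0 by DESeq2, 0 had an unadjusted p under 0.05, and 0% of all genes passed, although 118 and 234 genes had an unadjusted p under 0.05. The Log2FC was negative for 40 members in Sed vs. Ex and for 39 in CC-Sed vs. CC-Ex, with medians of -0.14 and -0.12, beside 0.01 for all genes in both. Without CC-Ex replicate 5 the median in CC-Sed vs. CC-Ex was -0.38, with 0 members and 0% of all genes passing. Since that rat was picked for high values of the members and the high CC-Sed rats stayed in, this shift follows by design. It cannot be read as an effect of training. In that fit 26 members had an unadjusted p under 0.05. The share of all genes at that level was not counted, so 26 cannot be read as particular to the members. Both comparisons share rats with the CC comparisons. The intervals allow differences of a useful size, since that of Psme4 in CC-Sed vs. CC-Ex ran from -0.65 to 0.92 around 0.14 and that of Psmd8 from -1.09 to 0.65 around -0.22.

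The difference between the CC effects in trained and in sedentary rats, the interaction, was likewise not detectable for any member. With 0 of 44 members passing by edgeR and 0 by DESeq2, 0 at an unadjusted p under 0.05 and 0% of all genes passing, against 154 genes at an unadjusted p under 0.05, its Log2FC lay between -0.44 for Psmb9 and 0.31 for Psme4. The 95% interval was from -0.80 to 1.42 for Psme4 and from -1.04 to 0.16 for Psmb9. The sign for Psme4 turned without CC-Ex replicate 5, where its interaction was -0.41, and without the 3 high rats it was -0.21. For Psmb9 it was -0.29 and -0.26. Without CC-Ex replicate 5 the interaction was negative for every constitutive subunit of the core and the cap, from -0.03 for Psmb5 to -0.68 for Psmd8. That rat was picked for high values of the members while the high CC-Sed rats stayed in, so the downward shift follows by design. With CC-Sed replicate 6 left out instead, the interaction was 0.08 for Psmb5 and 0.36 for Psmd8. Without the 3 high rats it was 0.10 for Psmb5 and 0.04 for Psmd8.

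The genes that work with the proteasome were counted by lists chosen with earlier results known. Of the other 16 partners of the proteasome, 7 rose and 2 fell in the mean CC effect, beside 17.2% and 10.6% of all genes, and 3 rose and 2 fell without the 3 high rats. Zfand5, an activator of the proteasome known from muscle, rose with a Log2FC of 1.23 ± 0.28 (adjusted p = 0.0041), and Akirin2, which brings proteasomes into the nucleus, by 0.50 (adjusted p = 0.00739). Akirin1, of the same family, fell by 0.63 (adjusted p = 0.00125), from a median of 36.32 CPM in Sed and 35.78 CPM in Ex to 25 CPM in CC-Sed and 23.17 CPM in CC-Ex, and Ube3c, a ligase that extends ubiquitin chains on the proteasome, fell by 0.28 (adjusted p = 0.00731). In Sed vs. CC-Sed the 2 that fell were the ones that passed, among 6.46% of all genes. Without the 3 high rats 1 passed there, downward, among 3.05% of all genes. In Ex vs. CC-Ex 0 passed by edgeR, with or without these rats. With all rats 8 had an unadjusted p under 0.05 there, as 22.6% of all genes did.

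Of 14 genes for the segregase VCP, its cofactors and the NRF1 axis that drives proteasome genes, 10 rose and 0 fell in the mean CC effect, beside 17.2% and 10.6% of all genes, and 3 rose and 0 fell without the 3 high rats. In Sed vs. CC-Sed 1 of 14 rose, with or without these rats, where 6.46% and 3.05% of all genes passed, so this count does not set the list apart. In Ex vs. CC-Ex 0 passed by edgeR, with or without these rats. With all rats 10 had an unadjusted p under 0.05 there, as 22.6% of all genes did. Mafk, a small partner of NRF1 and NRF2, had the smallest p with a Log2FC of 1.09 ± 0.24 (adjusted p = 0.0035), followed by Nfe2l2, the gene of NRF2, at 0.68 (adjusted p = 0.00856), the deglycosylase Ngly1 at 0.27 (adjusted p = 0.00918) and the protease Ddi2 at 1.58 (adjusted p = 0.01), the last 2 of which process NRF1. Without the 3 high rats Ddi2 was at 0.87 (adjusted p = 0.079) and no longer passed. Mafk was then at 0.52 (adjusted p = 0.00332), Nfe2l2 at 0.36 (adjusted p = 0.0381) and Ngly1 at 0.17 (adjusted p = 0.0312). In this list 10 of 14 genes had the same 3 highest rats as the core, and in the list of partners 10 of 16.

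Of 13 muscle ubiquitin ligases 5 rose and 1 fell in the mean CC effect, beside the same 17.2% and 10.6% of all genes, and without the 3 high rats 5 rose and 0 fell. In Sed vs. CC-Sed 2 rose and in Ex vs. CC-Ex 1, where 6.46% and 0.995% of all genes passed in either direction. Without the 3 rats these counts were 2 and 0, where 3.05% and 0.0461% of all genes passed. Fbxo32 was at 52.25, 110.7 and 326.1 CPM in the lowest, median and highest Sed rat, at 69.47, 104.6 and 125.1 CPM in the Ex rats, at 178.9, 1042 and 1415 CPM in the CC-Sed rats and at 86.04, 469.9 and 2755 CPM in the CC-Ex rats. Its mean Log2FC was 2.82 ± 0.45 (adjusted p = 0.000377), and it passed in both single comparisons (adjusted p = 0.02 and 0.0329). Trim63 had a mean Log2FC of 2.40 ± 0.47 (adjusted p = 0.00152), Cblb of 1.15 (adjusted p = 0.00278) and Fbxo31 of 0.92 (adjusted p = 0.00761). The highest rats of Fbxo32 and Trim63 in each CC group were CC-Sed replicate 6 and CC-Ex replicate 5, as for most subunits. These rats were the highest of their groups for 19.6% and 36.9% of all genes. Among 13 antigen presentation partners of the immunoproteasome 0 rose and 1, RT1-T24-4, fell (Log2FC -0.47, adjusted p = 0.0212), and without the 3 high rats 0 passed by edgeR and 1 had an unadjusted p under 0.05.

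**Figure D4:**
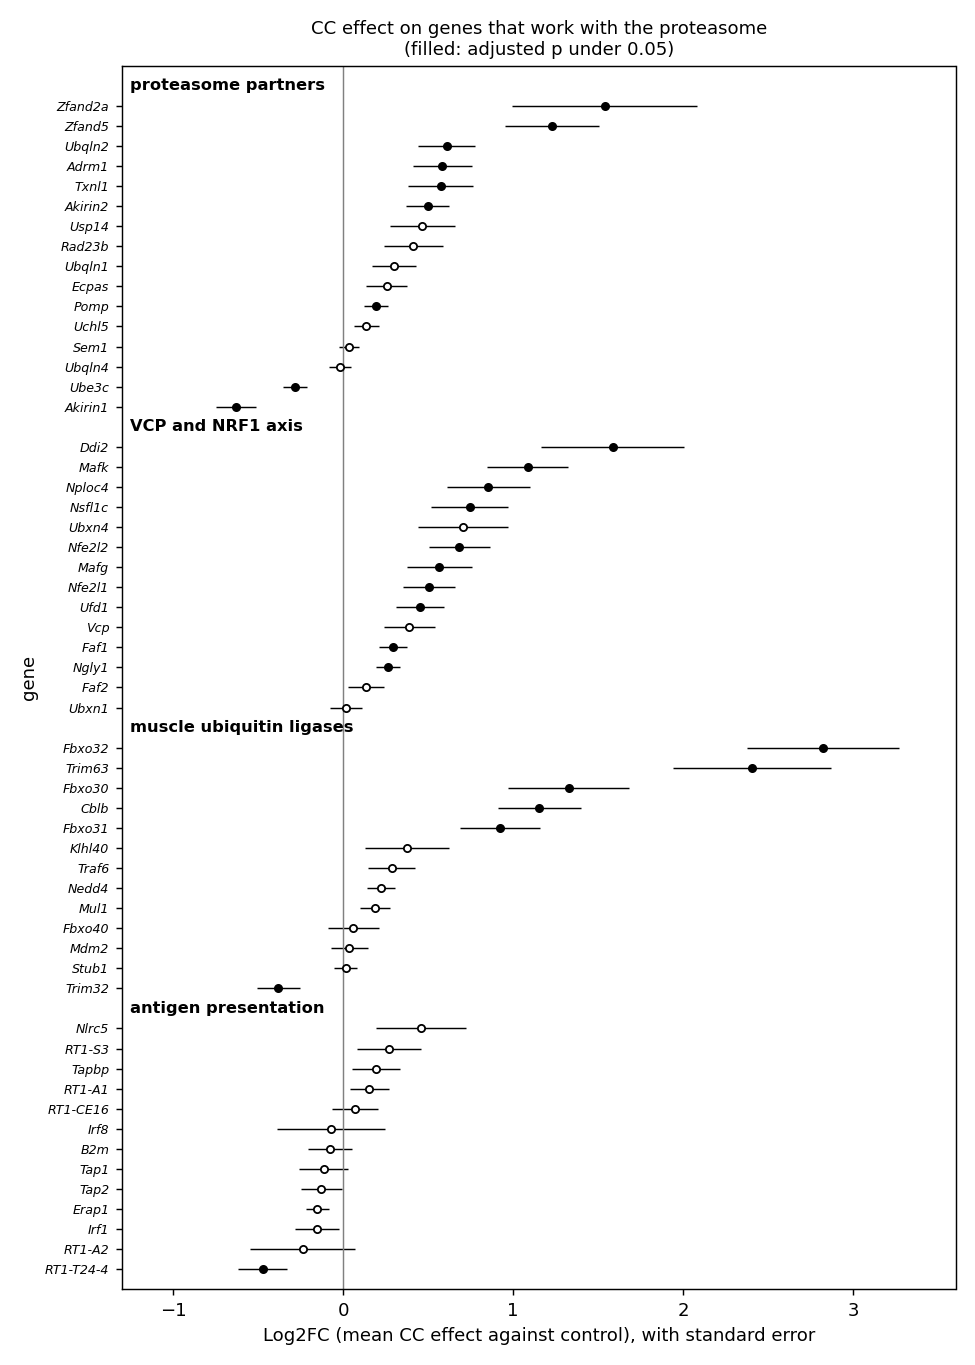
Mean CC effect (Log2FC with its standard error) on genes outside the proteasome itself, grouped by list, with filled points for an adjusted p under 0.05. The muscle ligases Fbxo32 and Trim63 lie farthest to the right, at 2.82 and 2.40, whereas most antigen presentation genes lie around 0.

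Markers of some other cell types also differed between CC and control rats. The 6 fibroblast markers had a median summed level of 1597 CPM in Sed and 2063 CPM in Ex, and of 791.9 CPM in CC-Sed and 474.1 CPM in CC-Ex, with 3 of 6 lower in the mean CC effect. The erythroid markers, 3 of a list of 4 in the table, rose in 2 of 3. Their summed level had medians of 115.1 CPM in Sed, 151.3 CPM in Ex, 118.6 CPM in CC-Sed and 317.9 CPM in CC-Ex. The highest sum was 960 CPM in CC-Ex, in replicate 2, against 209.6 CPM in Ex. The slow-fibre markers, 4 of 7 in the table, passed in 0 of 4 by edgeR, with 0 at an unadjusted p under 0.05, and had medians of 973.1 CPM in Sed, 1953 CPM in Ex, 3605 CPM in CC-Sed and 2956 CPM in CC-Ex. The 7 fast-fibre markers in the table likewise passed in 0, with 2 at an unadjusted p under 0.05, and the 13 leukocyte markers in 0, with 0 at an unadjusted p under 0.05. In the 3 high rats the slow-fibre sum was 3862, 3348 and 16.93 CPM. Of the endothelial markers, 2 of 5 rose, while the other 3 had a negative Log2FC and the median was -0.10. Of the adipocyte markers 1 of 3 fell. Beside these counts of markers, 17.2% of all genes rose and 10.6% fell in the mean CC effect. Leaving out the 3 high rats, 2 of 6 fibroblast and 0 of 3 adipocyte markers fell, and 3 of 3 erythroid and 2 of 5 endothelial markers rose. The part of these cell types in the values of the members was not tested. With the slow-fibre markers as a covariate, 32 members passed in the mean CC effect and 16 in Sed vs. CC-Sed, where 35.3% and 12.7% of all genes passed.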

How the data were processed

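Expression was measured by poly-A RNA-seq of the medial gastrocnemius of 24 rats, 1 library each, and the labels gave each library its group and replicate number. Reads were trimmed by the authors with Trim Galore and quantified with Salmon against transcripts of the build mRatBN7.2, and tximport added the transcripts of a gene. The result deposited for 10851 genes is an unscaled table of estimated counts in whole numbers, and no value in it is under 10, so that genes low in any rat are not in it. Of its rows, 13 carried no symbol. The libraries were stranded, and the counting strand was not given in the sources used here.

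The analysis used edgeR 4.0.16 in R 4.3.3. An expression filter removed 0 genes, library sizes were scaled by TMM, and 1 quasi-likelihood fit with a mean per group took in all 24 rats, which share the estimate of spread. Standard errors are the Log2FC divided by the root of F, and 95% intervals rest on 23 degrees of freedom. The Benjamini-Hochberg adjustment ran over all genes, the threshold was 0.05, and the DEG criterion added a Log2FC of at least 1, as in the study, which used DESeq2. Log2 CPM values had a prior count of 2. Totals were compared by two-sided exact permutation tests of 924 arrangements. The tools were tested on simulated data with known changes.

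The members, the gene lists and the tests were chosen with earlier results of these data known. Members named by rule were the catalytic subunits, the activators and the 12 called members with the smallest p in each comparison. In each role the member with the smallest p was added. For Psmc1, Psmc5, Psmd4, Psmd7, Psmc3ip and Psme3ip1 the text gives the Log2FC and no levels by group. Others are named by role or after their values were seen. In each outside list the 4 genes with the smallest p were named, and some genes were left out of these lists and are not reported here. Alternatives were DESeq2 1.42.0, upper-quartile scaling, no filter, a mean of at least 5 CPM, only the rats compared, a block for the replicate number, a covariate for the library number or for the slow-fibre markers, limma-voom with quality weights (limma 3.58.1) and omission of 1 rat at a time. The labels call the samples replicates and each is a separate animal, and no batch was given. The library number is a running number in the library names. It went from 1 to 14 in CC-Ex and from 9 to 24 in Sed, so as a covariate it partly follows the groups.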

Additional observations from a re-analysis of the deposited data

Results flagged for a closer look

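Gaps between the extreme rat and its nearest neighbour were divided by the range of the group in log2 CPM. This was done for the 21 members named by rule, and 15 of 84 groups exceeded Dixon's critical value for 6 rats. Chance flags about 1 in 20 groups, and the members are not independent of each other. CC-Ex replicate 5 was the extreme rat in 8 of them. It was the highest for Psmb4 (0.668), Psmc1 (0.633), Psmc2 (0.631), Psmd12 (0.686), Psmd4 (0.669), Psmd5 (0.746) and Psmd8 (0.729), and the lowest for Psme1 (0.703). Among the Sed rats, replicate 5 stood above the others for Psmd2 (0.68), Psmd5 (0.717) and Psmd7 (0.649), and replicate 6 for Psme2 (0.684). Among the Ex rats, replicate 6 was lowest for Psmb5 (0.714), replicate 1 highest for Psmd8 (0.652) and replicate 4 highest for Psme1 (0.693). CC-Sed gave no such gap, and its high rats were 2, replicates 1 and 6.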

How the results depend on the processing

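The count of members called in the mean CC effect, 27, lay between 23 (upper-quartile scaling) and 32 (slow-fibre markers as a covariate) over the other alternatives that kept the call rule and the rats, with 30 by DESeq2. It was 2 with the Log2FC criterion added, 5 without CC-Sed replicates 1 and 6 and CC-Ex replicate 5, and 17 (without CC-Sed replicate 1, CC-Sed replicate 6 or CC-Ex replicate 5) to 31 (without CC-Sed replicate 4) with each rat left out in turn. For Sed vs. CC-Sed the count was 1 with only the rats compared (Psme4), 15 by limma-voom and 16 with the slow-fibre covariate, and 0 to 17 with each rat left out, 17 without CC-Ex replicate 5, 8 without CC-Sed replicate 4 and 1 (Psmd12) without CC-Sed replicate 2. For Ex vs. CC-Ex it was 1 by DESeq2 (Psme4) and 0 to 1 with each rat left out, being 1 without CC-Ex replicate 1 or 4. Counts for both training comparisons and the interaction were 0 under every alternative. With the replicate block the count was 24 for the mean CC effect and 0 for every other comparison. The share of all genes that passed moved between fits too. For the mean CC effect it was 27.8% in the main fit, 35.3% with the slow-fibre covariate and 15.3% without the 3 high rats. It was 20.6% without CC-Sed replicate 1 alone, 20.3% without CC-Sed replicate 6 and 24.1% without CC-Ex replicate 5. For Sed vs. CC-Sed it was 6.46% and 12.7%, 19.3% without CC-Ex replicate 5 and 15.9% without CC-Sed replicate 4. No share is given for upper-quartile scaling, DESeq2, limma-voom, the replicate block or, in the mean CC effect, the fit without CC-Sed replicate 4. Where that share is not given, a count does not set the members apart from other genes. The replicate numbers join different animals, 5 of 12 correlations of same-numbered rats were over 0.1 (from -0.505 to 0.357), and 2 of 12 rats correlated best with their own number.

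Of the mean Log2FC values of the named members, 4 changed sign, none of them called. Psmb5 was -0.0311 under upper-quartile scaling, -0.0333 by limma-voom and -0.0493 without the 3 rats, and Psmd5, at 0.4271 with all rats, was -0.004 without them. Psme1 was 0.0417 with the library number as a covariate, 0.0182 by limma-voom, and from -0.0815 (without CC-Sed replicate 6) to 0.0107 (without Ex replicate 4) with each rat left out, being positive also without CC-Sed replicate 3 (9e-04) and CC-Ex replicate 5 (0.0013). Psme3ip1 was -0.0203 under upper-quartile scaling, which moved the median of all genes from 0.0144 to -0.0628. The remaining 648 values kept direction and side of the threshold, 28 fell short of it and 4 newly passed it.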
